A study of Oryza sativa with 6 samples.

Results

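Rice seedlings (Oryza sativa) of the cultivar TN-67, 6 days old, were given 5 µM copper, and their roots were compared with roots of the same age and cultivar kept in water on 3 two-colour oligonucleotide arrays. These were 3 of the 6 arrays of a study on early responses to copper and cadmium, and the other 3 held roots given 25 µM cadmium. Treated RNA was labelled with Cy5 and water-control RNA with Cy3 on every array, and each probe was read as the ratio of treated over control. Without a dye swap, the metal's effect on a probe and that of the dye cannot be told apart. The labels call the replicates biological and name 3 control replicates in all, so copper and cadmium arrays may have shared control RNA. The labels do not state an exposure time. Whole roots were sampled, in which fewer cells of a type and less RNA per cell cannot be told apart.

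All non-control probes named by a rice locus number (41908 probes) or by a microRNA precursor (510 probes) were taken, 42418 in all. After a filter on dim probes 33695 probes were left, and the brightest probe of each gene gave 23417 genes, of which 23288 were loci and 129 microRNA precursors. The array files give the loci by number only, and 0 of these numbers matched the reference table used here. Gene names, families and roles below are general knowledge of these rice loci, given as background and not checked against an annotation.

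Copper is a micronutrient that copper-binding enzymes need and that is toxic in excess, because the free ion cycles between oxidation states and forms reactive oxygen. Plant cells take it up through COPT transporters, pass it to chaperones such as ATX1 and CCS, pump it across membranes with P-type ATPases and bind it to metallothioneins. Copper salts are also long known in rice leaves as elicitors of phytoalexins, the antimicrobial diterpenoids that rice otherwise makes on attack by a fungus. Jasmonate, WRKY transcription factors and MAP kinases act upstream of these defences.

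Copper changed the transcript level of many genes, with more rises than falls of at least 2-fold. Of the 23417 genes, 10045 (42.9%) passed the test with limma at an adjusted p under 0.05. In all, 5958 rose (25.4%) and 4087 fell (17.5%). A change of at least 2-fold was more often upward, with 1742 rises (7.44%) against 92 falls (0.393%). With the scanner's processed signals these counts were 2393 and 902, or 2734 and 559 after centring, and with the values the authors deposited for the series they were 2391 and 895. The share of rises among the called genes depended on the scaling. It was 59.3% here and 40.01% with the scanner's own processed signals, which set the median of all genes at -0.13 against 0.02 (log2). Small changes in either direction are therefore relative to that choice.

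The first copper array stood apart from the other two. Its ratios correlated across genes at 0.81 and 0.84 with copper arrays 2 and 3, which correlated at 0.96 with each other. It lay alone on its slide, while arrays 2 and 3 shared a slide with 2 cadmium arrays. Outlier-marked spots were 2.78% on copper array 1 and 0.02% on each of copper arrays 2 and 3. Cadmium array 1 was alike, alone on its slide with 1.37% of spots marked. It correlated at 0.83 and 0.80 with cadmium arrays 2 and 3, which correlated at 0.95 with each other. A random block for slide left 8454 called genes, and on the shared slide alone 13526. Without copper array 1 there were 9043 called genes, 6592 without copper array 2 and 5762 without copper array 3.

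To describe the response by function, 326 loci in 31 lists of known rice gene groups were used, of which 321 were on the array and 288 were measured. Of the 288, 150 rose, 28 fell and 110 did not pass, with a median log2 ratio of 0.47. Over all genes 25.4% rose and 17.5% fell, and the list counts below are to be read beside these shares. The plot of the lists shows where the rises and falls lay. Counts of falls were the less stable, with 13 members without copper array 2 and 12 without copper array 3.

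**Figure D1:**
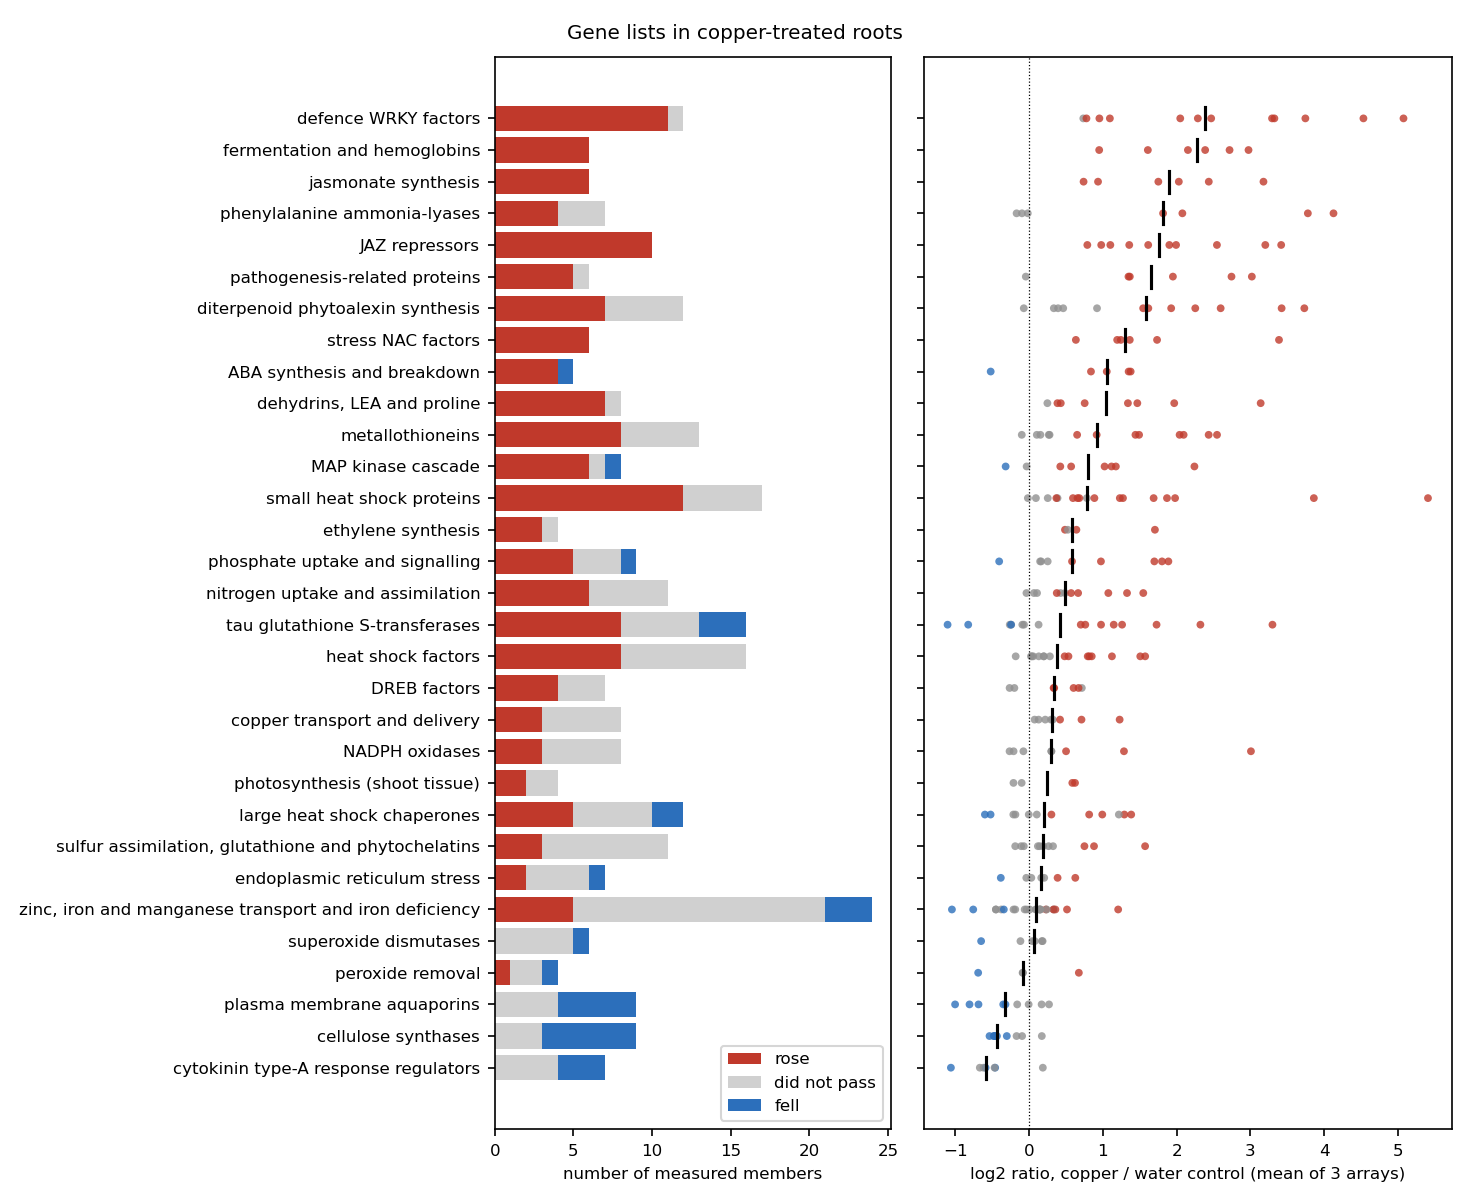
The left panel counts the measured members of each gene list that rose, fell or did not pass the test with copper (adjusted p under 0.05), and the right panel gives each member's log2 ratio of copper over water control (mean of the arrays with a value) with the list median as a black bar. WRKY factors, fermentation genes and jasmonate synthesis have medians of 2.38, 2.27 and 1.89, and cellulose synthases, aquaporins and type-A response regulators lie below 0.

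Genes that handle copper itself responded modestly. The chaperone ATX1 (Os08g0205400), which carries copper to the ATPases, had log2 ratios of 1.15, 1.32 and 1.21 on copper arrays 1 to 3. The 3 arrays lay close together and all above 0. The mean was 1.23 ± 0.07 (moderated SE of the fit over both metals), 2.34-fold, with an adjusted p of 1.25e-05. With cadmium ATX1 stood at 0.42, and the difference of 0.80 ± 0.10 (log2, SE) passed the test (adjusted p = 0.00261). It was the only one of the 8 measured members of the copper list that differed between the metals by this test, though CCS passed as well with the replicate block (adjusted p = 0.0448).

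The uptake transporter COPT1 (Os01g0770700) had ratios of 0.17, 0.92 and 1.05, low on array 1, with a mean of 0.71 (adjusted p = 0.0352). Its call was lost with the replicate block (adjusted p = 0.0637) and without copper array 2 or 3 (0.157 and 0.188). The heavy metal ATPase HMA9 (Os06g0665800), a metal efflux pump of the plasma membrane, stood at 0.64, 0.13 and 0.49, all above 0, with a mean of 0.42 (adjusted p = 0.0162). Its call was lost with slide as a random block (0.0676) and without copper array 1 (0.073) or 3 (0.0968). The other 5 measured members did not pass. HMA5 (Os04g0556000), which loads copper into the xylem, had a mean of 0.32, COPT3 (Os03g0370800) of 0.30, CCS (Os04g0573200), the chaperone that loads superoxide dismutase, of 0.22, COPT7 (Os09g0440700) of 0.13 and the vacuolar pump HMA4 (Os02g0196600) of 0.08. With the replicate block HMA5, COPT3 and CCS passed too, at adjusted p of 0.00735, 0.0154 and 0.0437. The count of 3 rises among 8 became 2 without copper array 2 and 1 without copper array 3.

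Superoxide dismutases, of which several carry copper, showed no rise past the test. None of the 6 measured members rose and 1 fell, with a list median of 0.06. The iron enzyme FSD1.1 (Os06g0115400) had ratios of -0.77, -0.62 and -0.55, below 0 on every array, with a mean of -0.65 (adjusted p = 0.000544). The cytosolic copper and zinc enzymes SODCC1 (Os03g0219200) and SODCC2 (Os07g0665200) had means of 0.17 and 0.08, and the mitochondrial manganese enzyme MSD1 (Os05g0323900) of 0.18, none of them past the test. MSD1 was below 0 on array 1 (-0.24) and above it on the others (0.31 and 0.48), and passed with the replicate block (adjusted p = 0.0461). FSD1.2 (Os06g0143000) stood at 0.04 and the plastid copper and zinc enzyme Os08g0561700 at -0.12. Among 4 genes of peroxide removal, the cytosolic ascorbate peroxidase APX1 (Os03g0285700) rose by 0.68 and the catalase CATA (Os02g0115700) fell by 0.69. CATA lost its call without copper array 2 or 3.

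Metallothioneins, small cysteine-rich proteins that bind copper, zinc and cadmium, rose in 8 of 13 measured members and fell in none. The list median was 0.92. The type 1 gene Os12g0571000 had log2 ratios of 3.32, 2.06 and 2.26, highest on array 1. Its mean was 2.55 ± 0.25, 5.85-fold, with an adjusted p of 0.000168. Cadmium gave 0.89, and the difference of 1.65 ± 0.35 passed (adjusted p = 0.0232). It was the only metallothionein of the 13 that differed between the metals, and with the replicate block Os12g0570700 and Os01g0149200 passed as well (adjusted p = 0.0157 and 0.0424).

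Its neighbours on chromosome 12 rose as well. Os12g0568200 stood at 3.31, 1.78 and 2.21 with a mean of 2.43, Os12g0567800 at 2.31, 1.90 and 2.08 with a mean of 2.096, and Os12g0570700 at 1.52, 2.09 and 2.52 with a mean of 2.04. Array 1 was highest for the first 2 of these and lowest for the third. Smaller rises came from Os12g0571100 (0.92) and Os12g0568500 (0.65), of which the latter lost its call in 3 of 18 alternative settings. Such near-identical copies can share probes' targets, and cross-hybridisation between them was not tested. The type 2 genes Os01g0149800 and Os01g0149200 rose by 1.49 and 1.44. The type 2 gene Os05g0111300 stood at -0.10, and the type 1 gene Os11g0704500 at 0.11, Os03g0288000 at 0.27, the type 3 gene Os05g0202800 at 0.16 and the seed type Os10g0542100 at 0.28, none past the test. Os10g0542100 passed with the replicate block (adjusted p = 0.0358).

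**Figure D2:**
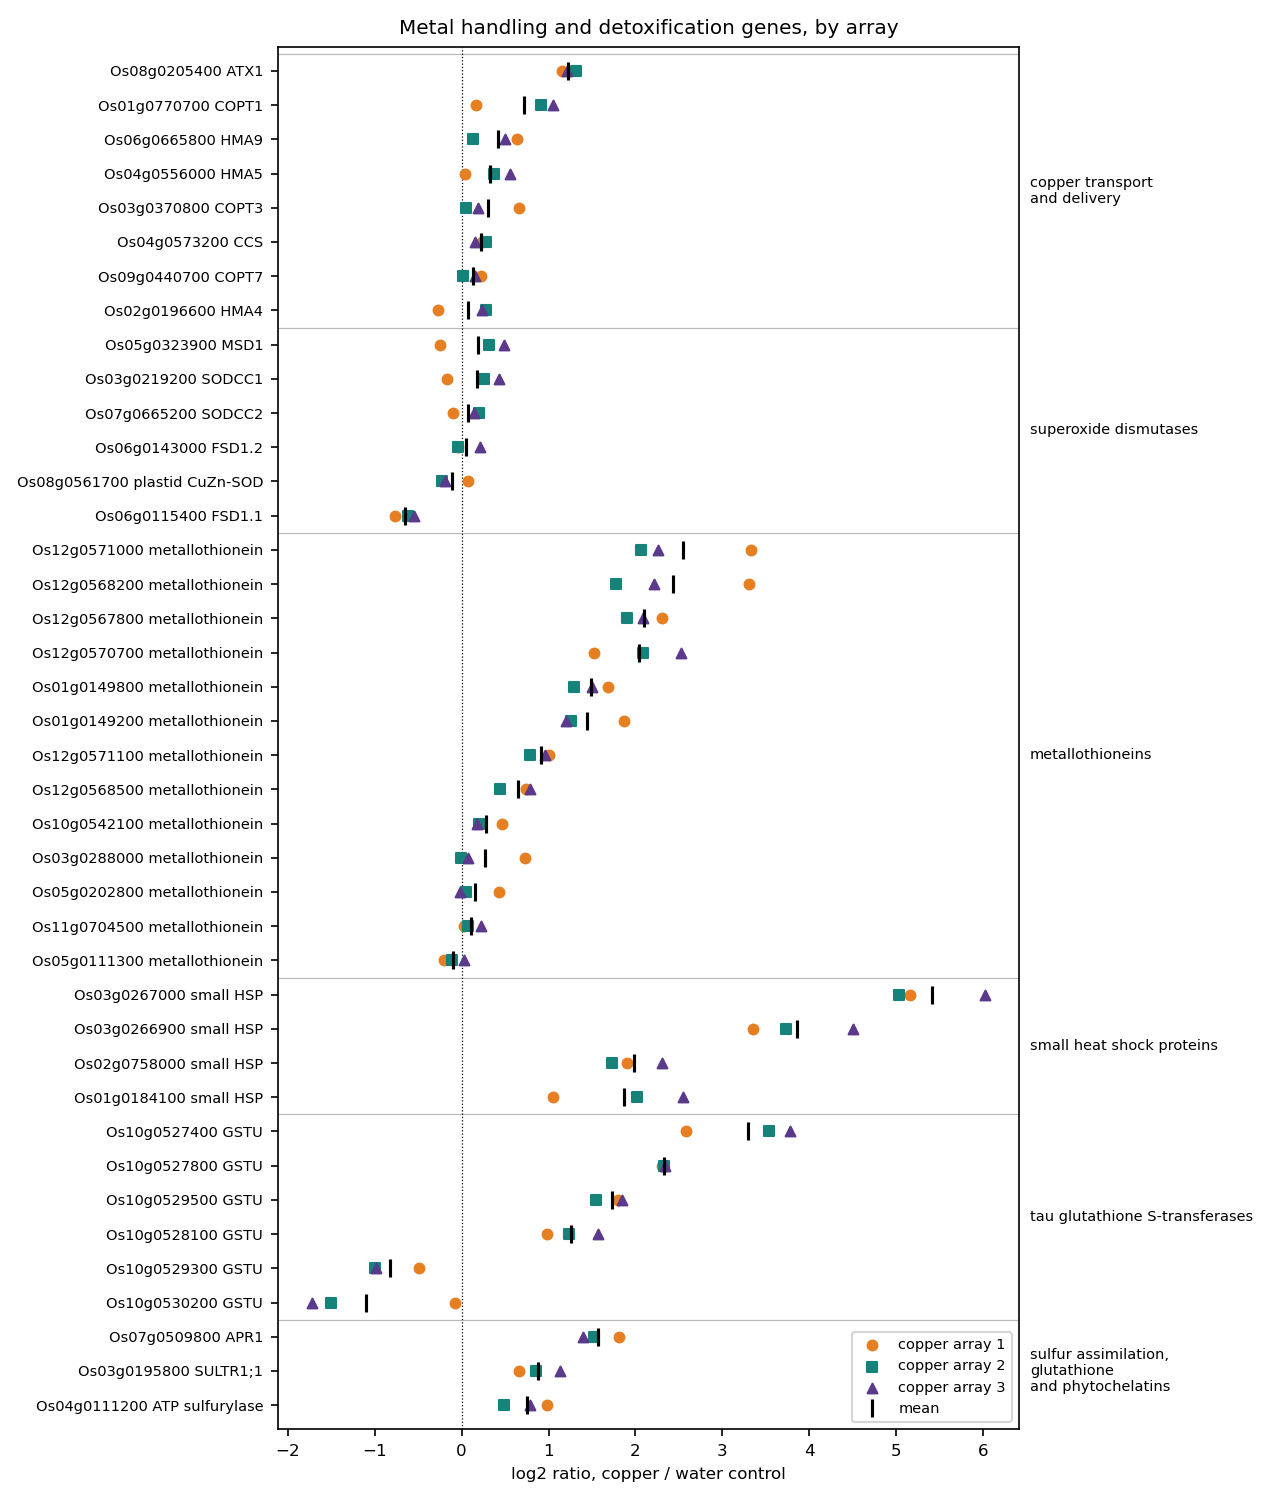
Log2 ratio of copper over water control on each of the 3 copper arrays (coloured symbols) and their mean (black bar) for the genes named from 6 lists. ATX1 has its 3 arrays between 1.15 and 1.32, the metallothioneins spread from -0.10 to 2.55 in their means, and the superoxide dismutases lie near 0 except FSD1.1.

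Nearly all measured WRKY transcription factors of the list, which switch defence genes on or off, rose. Of 12 measured members 11 rose and none fell, with a median of 2.38. WRKY76 (Os09g0417600), a repressor of defence in rice, had log2 ratios of 6.03, 4.79 and 4.41, highest on array 1. Its mean of 5.08 ± 0.31 was a 33.7-fold rise (adjusted p = 1.62e-05). WRKY62 (Os09g0417800), its neighbour on chromosome 9 and a close relative, had ratios of 4.60, 4.67 and 4.33 with a mean of 4.53, 23.1-fold. WRKY45 (Os05g0322900), which drives salicylate-dependent resistance, had ratios of 3.41, 3.47 and 3.11 with a mean of 3.33, 10.03-fold. Other probes of WRKY45 gave 3.25, 3.21 and 1.57.

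These 3 factors differed from cadmium by more than any other measured WRKY gene of the list. With cadmium WRKY76 stood at 0.65, WRKY62 at 0.58 and WRKY45 at 0.69. The differences of 4.42 ± 0.43, 3.96 ± 0.26 and 2.64 ± 0.12 all passed, with adjusted p of 0.00102, 0.000259 and 0.000117. WRKY10 (Os01g0186000) rose by a similar amount with copper (2.83, 4.06 and 4.35, mean 3.75), but its cadmium mean was 4.18 and the difference of -0.44 ± 0.41 did not pass. Among all 23417 genes, 1538 (6.57%) were higher with copper than with cadmium and 953 (4.07%) lower. In the WRKY list 3 were higher and 3 lower. WRKY71 (Os02g0181300), WRKY28 (Os06g0649000) and WRKY70 (Os05g0474800) were the lower ones, with copper means of 3.29, 2.47 and 0.95 against cadmium means of 4.02, 3.72 and 2.68. The control of WRKY70 was not well above background on any copper array, which gives a rise of at least 1.88-fold with copper. WRKY13 (Os01g0750100) was the member that did not pass, at -0.07, 1.05 and 1.23.

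Phenylalanine ammonia-lyases open the phenylpropanoid pathway to lignin, phenolics and salicylate, and 4 of 7 rose. PAL6 (Os04g0518400) had log2 ratios of 3.55, 4.38 and 4.44, all far above 0, with a mean of 4.13 ± 0.18, 17.5-fold (adjusted p = 3.98e-06). PAL3 (Os02g0626600) had ratios of 3.93, 3.72 and 3.68 with a mean of 3.78, 13.7-fold. Cadmium gave 0.89 for PAL6 and 2.57 for PAL3, and the differences of 3.23 ± 0.25 and 1.21 ± 0.16 passed (adjusted p = 0.00042 and 0.00403). PAL4 (Os02g0627100) and PAL7 (Os05g0427400) rose by 2.08 and 1.82 with differences from cadmium that did not pass. PAL1, PAL2 and PAL5 (Os02g0626100, Os02g0626400 and Os04g0518100) lay between -0.17 and -0.02. The 4 rises kept their call in all 18 alternative settings.

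Genes for diterpenoid phytoalexins rose in 7 of 12 measured members of 18 listed, and most of those that rose lie in the momilactone cluster on chromosome 4. KSL4 (Os04g0179700), the kaurene synthase-like enzyme that makes the momilactone precursor, had ratios of 3.29, 4.06 and 3.84. All 3 arrays were high. The mean was 3.73 ± 0.16, 13.3-fold (adjusted p = 3.54e-06). Only 1 of the 3 arrays had a control signal well above background. With cadmium KSL4 stood at 0.53, and the difference of 3.20 ± 0.22 passed (adjusted p = 0.000285).

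Its cluster partners were low on array 1. The dehydrogenase MAS1 (Os04g0179200) had ratios of 1.61, 4.58 and 4.08, with a mean of 3.42 ± 0.48 (adjusted p = 0.0011). Its paralog MAS2 (Os04g0179100) had 0.89, 3.87 and 3.03, with a mean of 2.60 that ran from 1.96 to 4.05 over the alternative settings. The copalyl diphosphate synthase CPS4 (Os04g0178300), which acts one step before KSL4, had 0.77, 3.17 and 2.82, with a mean of 2.25. On each of these, array 1 was the lowest by more than the gap between arrays 2 and 3. Without array 1 their means were 4.33, 3.45 and 2.99. Differences from cadmium were 2.45, 2.43 and 1.97 and did not pass, at adjusted p of 0.0615, 0.0545 and 0.0614. With the replicate block all 3 passed, at 0.0262, 0.0333 and 0.0484.

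The factor DPF (Os01g0196300), an activator of these pathways, rose by 1.62, and the cytochrome CYP99A2 (Os04g0180400) and KSL8 (Os11g0474800) by 1.93 and 1.55, with 0.48 on another probe of KSL8. The neighbouring CYP99A3 (Os04g0178400) did not pass, at -1.24, 2.72 and 1.28. On the chromosome 2 cluster, KSL7, CYP76M6, CYP76M7 and KSL5 (Os02g0570400, Os02g0569400, Os02g0569900 and Os02g0571300) had means between -0.07 and 0.46 and none passed here. Another probe of CYP76M6 gave 1.00. Without copper array 1 the list had 11 rises in place of 7, genes of the chromosome 2 cluster among them. Over the alternative settings its rises ran from 4 to 11. Array 1 had a list median of 0.62, against 2.55 and 1.88 on arrays 2 and 3.

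Pathogenesis-related proteins showed the widest gap between arrays. PR10a, also called PBZ1 (Os12g0555500), a probenazole-induced defence protein, had log2 ratios of -0.82, 5.69 and 4.18. It was below the control on array 1 and far above it on the other 2. The mean of 3.02 ± 1.03 just passed (adjusted p = 0.0474), and the call was lost in 12 of 18 alternative settings. Its SE is moderated over both metals and all genes, and is smaller than the 3 copper ratios alone would give. Without array 1 the mean was 4.94 (adjusted p = 0.000176), without array 2 it was 1.68 and without array 3 it was 2.44.

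The neighbouring PR10-type genes Os12g0555000 and Os12g0555200 behaved alike, at 0.22, 4.75 and 3.26 and at 0.30, 3.24 and 2.31. Their means were 2.74 and 1.95, and their calls were lost without copper array 2 or 3. JIOsPR10 (Os03g0300400), a jasmonate-inducible PR10 protein, was steadier at 0.91, 1.67 and 1.51, mean 1.37 ± 0.14 (adjusted p = 0.000191). Its cadmium mean was 0.14, and the difference of 1.23 ± 0.19 passed (adjusted p = 0.00693). PR1a (Os07g0129200) rose by 1.35 against -0.29 with cadmium (difference 1.64, adjusted p = 0.0106), and PR1b (Os01g0382000) stood at -0.04. In all 5 of 6 rose, or 2 of 6 without copper array 2 or without copper array 3.

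Jasmonate, the hormone of wounding and defence, is made from plastid lipids by lipoxygenases, allene oxide synthase and cyclase and OPR enzymes, and all 6 measured members rose. The lipoxygenase Os08g0508800 had ratios of 1.90, 4.07 and 3.56, lowest on array 1, with a mean of 3.18 ± 0.34 (adjusted p = 0.000284). Its control signal was not well above background on any of the 3 arrays, so the rise is given as at least 9.03-fold, from the signal with copper over the dimmest signal called well above background on each array or the control's own if higher. Its neighbour Os08g0509100 had 1.31, 3.09 and 2.91, with a mean of 2.44, and another probe of it 0.90.

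With cadmium the lipoxygenases stood at 0.17 and 0.25, and the differences of 3.01 ± 0.48 and 2.19 ± 0.42 passed (adjusted p = 0.00778 and 0.0163). The first of these is uncertain in size because of its dim control and ran from 2.55 to 5.47 over the alternative settings. The allene oxide synthase AOS1 (Os03g0767000) was even across arrays, at 2.16, 1.84 and 2.09, with a mean of 2.03 against 0.98 with cadmium (difference 1.05, adjusted p = 0.00478). AOS2 (Os03g0225900) was low on array 1, at 0.64, 2.45 and 2.17, and its other probes gave means of 1.38, 1.33 and 0.80. The cyclase AOC (Os03g0438100) and OPR7 (Os08g0459600) rose by 0.94 and 0.74 and stood at -0.03 and -0.01 with cadmium. Of the 6 members, 5 were higher with copper than with cadmium.

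JAZ proteins repress the jasmonate response and are themselves induced by the hormone, and 10 of 10 rose. JAZ11 (Os03g0180900) had ratios of 3.24, 3.49 and 3.52 with a mean of 3.42 ± 0.14 (adjusted p = 3.62e-06). JAZ12 (Os10g0392400) followed at 3.20, JAZ9 (Os03g0180800) at 2.55 and JAZ10 (Os03g0181100) at 1.99. The 3 loci on chromosome 3 lie side by side by their numbers. JAZ11 and JAZ9 exceeded their cadmium means of 2.24 and 1.11 (differences 1.18 and 1.44, adjusted p = 0.0103 and 0.00691), as did JAZ5 (Os04g0395800), at 1.90 against 0.50. JAZ12 did not differ past the test, with 2.95 under cadmium.

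**Figure D3:**
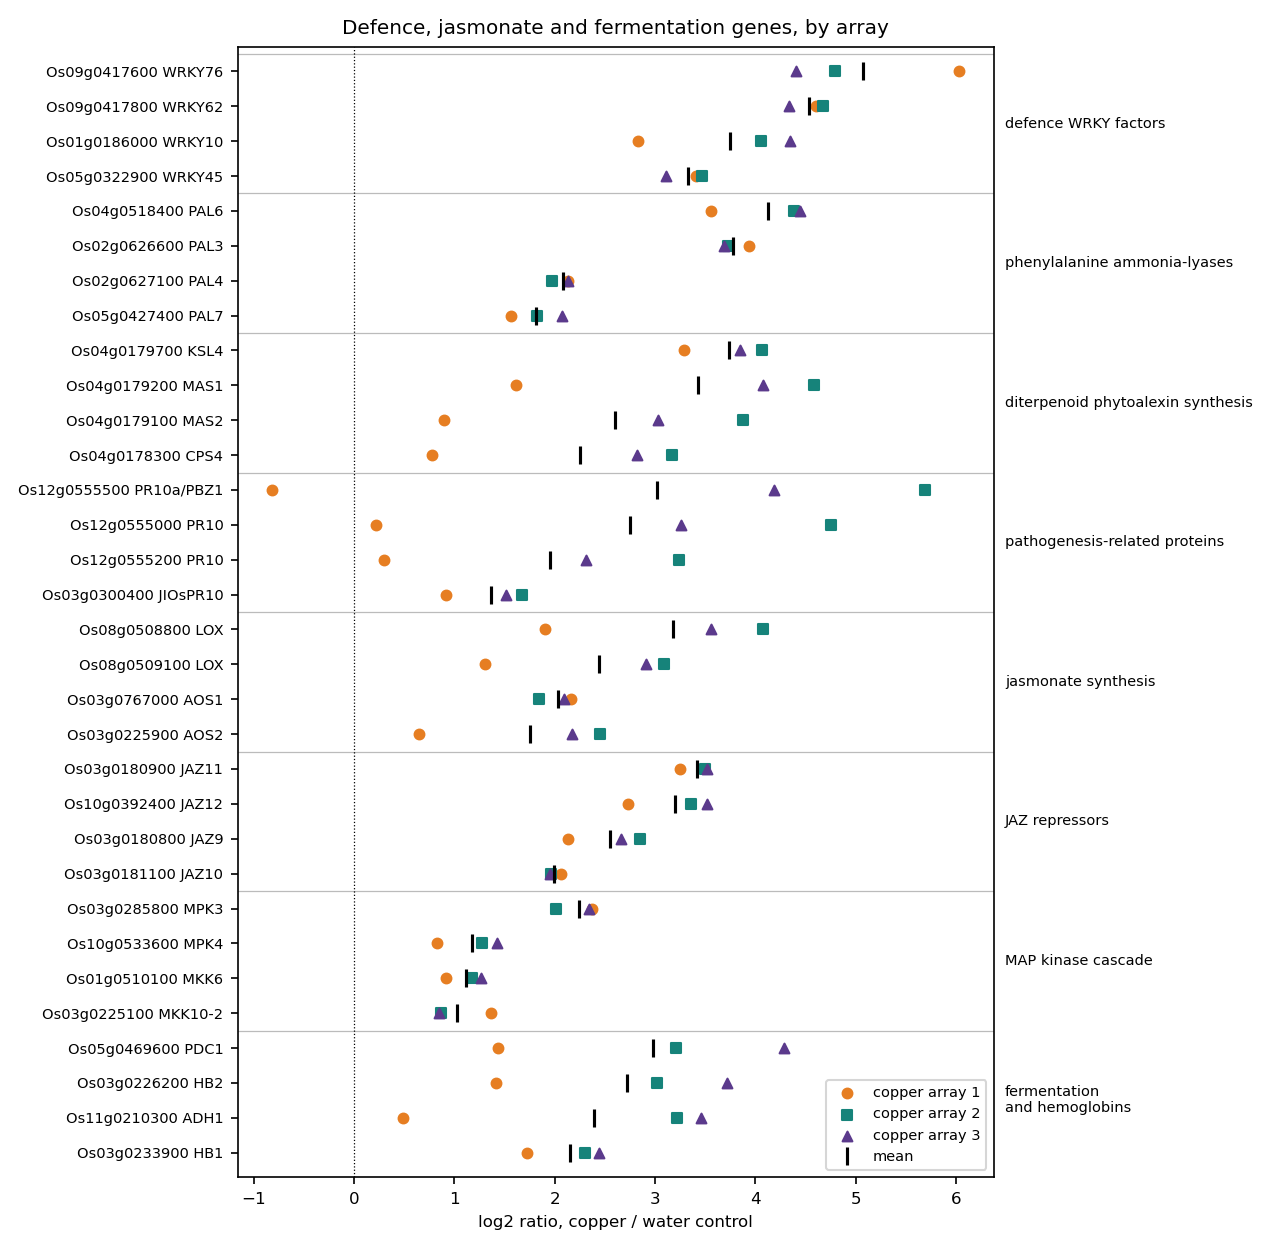
Log2 ratio of copper over water control on each of the 3 copper arrays (coloured symbols) and their mean (black bar) for genes named from 8 lists. Array 1 lies with the others for WRKY62, PAL3, KSL4 and JAZ11 and far to the left of them for the PR10 genes, MAS1, MAS2, CPS4, AOS2 and ADH1.

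MAP kinases relay the early signal. MPK3 (Os03g0285800), a kinase activated by pathogen signals and metals, had ratios of 2.37, 2.01 and 2.35 with a mean of 2.24 ± 0.09 (adjusted p = 3.04e-06). It stood at 1.41 with cadmium (difference 0.84, adjusted p = 0.00636). MPK4 (Os10g0533600) and the kinase kinase MKK6 (Os01g0510100) rose by 1.18 and 1.12 and stood at 0.28 and 0.25 with cadmium, with differences of 0.89 and 0.86 that passed (adjusted p = 0.0163 and 0.0119), that of MKK6 on 2 cadmium arrays. MKK10-2 (Os03g0225100) rose by 1.02. In all 6 of 8 rose. MKK5 (Os06g0191300) fell by 0.32, a call lost without copper array 2 or 3, and MPK6 (Os06g0154500) stood at -0.03.

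Of 8 measured NADPH oxidases, which make superoxide outside the cell, 3 rose. Os12g0541300 had ratios of 2.40, 2.93 and 3.69 with a mean of 3.01 (adjusted p = 0.000386) and a like cadmium mean of 3.11. Os11g0537400 rose by 1.29 and was lower than with cadmium (2.16, difference -0.88, adjusted p = 0.0359). That difference did not pass with the replicate block (adjusted p = 0.0564). Os01g0360200 rose by 0.50, a call lost in 2 alternative settings. The other 5 lay between -0.26 and 0.30.

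Genes of other stress hormones and water stress rose too. In ethylene synthesis 3 of 4 rose, led by ACS2 (Os04g0578000), at 2.53, 0.99 and 1.59 with a mean of 1.71. The oxidase ACO3 (Os02g0771600) passed by a narrow margin (0.49, adjusted p = 0.0343), which was lost in 7 of 18 alternative settings, the replicate block among them (0.0542). In abscisic acid synthesis NCED5 (Os12g0617400) and NCED3 (Os03g0645900) rose by 1.38 and 1.35. The size for NCED5 is uncertain, from 1.05 to 3.18 over the alternative settings. NCED4 (Os07g0154100) rose at least 1.96-fold over a control not well above background on any copper array. The breakdown enzyme ABA8OX1 (Os02g0703600) rose by 0.84 and ABA8OX2 (Os08g0472800) fell by 0.52, the latter without a call when copper array 2 or 3 was left out.

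NCED5, NCED4 and ABA8OX1 were lower with copper than with cadmium, whose means were 4.01, 2.28 and 1.94. The list of late embryogenesis abundant proteins and dehydrins, which protect cells against drying, also holds the proline synthesis genes P5CS1 and P5CS2. Of its 8 members 7 rose. The count of 7 was 6 without copper array 2 and 5 without copper array 3, and ran from 4 to 8 over the alternative settings. P5CS1 (Os05g0455500) did not pass, at 0.25. P5CS2 (Os01g0848200) rose by 0.39 on the probe tested, but its other probes gave 0.06 and -0.39. The list was led by Os01g0705200 (2.99, 3.20 and 3.23, mean 3.14 ± 0.10, adjusted p = 1.35e-06). This gene stood at 1.61 with cadmium, a difference of 1.53 that passed (adjusted p = 0.000679). LEA3 (Os05g0542500) went the other way between the metals, at 1.97 with copper against 2.98 with cadmium (adjusted p = 0.0243). Other probes of LEA3 gave 1.95, 1.87 and 0.76 with copper. RAB16A (Os11g0454300) and RAB16B (Os11g0454200) rose by 1.47 and 1.34, each with a control above background on 1 array only.

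NAC factors of stress rose in 6 of 6 members. NAC4 (Os01g0816100), linked to cell death in rice defence, had ratios of 2.81, 3.40 and 3.95 with a mean of 3.39 (adjusted p = 1.17e-05). SNAC1 (Os03g0815100), a drought factor, rose by 1.74, NAC10 (Os11g0126900) by 1.37 and NAC3 (Os07g0225300) by 1.24, the last below its cadmium mean of 2.33 (difference -1.09, adjusted p = 0.00634). DREB factors moved less, with 4 of 7 rises, a median of 0.34 and none at 2-fold. DREB1A (Os09g0522200) rose by 0.67 against 2.56 with cadmium (difference -1.88, adjusted p = 0.00432), with its rise lost in 6 of 18 alternative settings, among them those without copper array 1, 2 or 3, and DREB2A (Os01g0165000) by 0.60. The count of 4 was 2 without copper array 1 and 1 without copper array 2 or 3, and with the replicate block 5 rose and 2 fell.

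Fermentation enzymes and hemoglobins, markers of low oxygen in roots, rose in 6 of 6 members with a wide gap between arrays. Pyruvate decarboxylase PDC1 (Os05g0469600) had ratios of 1.43, 3.21 and 4.28 and a mean of 2.98 ± 0.49 (adjusted p = 0.00234). Alcohol dehydrogenase ADH1 (Os11g0210300) had 0.48, 3.22 and 3.46 and a mean of 2.39 ± 0.50 (adjusted p = 0.00654). The hemoglobin HB2 (Os03g0226200) stood at 1.42, 3.02 and 3.72, with a control above background on 1 array. Array 1 was the lowest in each, and its list median was 1.00 against 2.66 and 2.95 on arrays 2 and 3. HB1 (Os03g0233900) was more even, at 1.72, 2.297 and 2.44, with a mean of 2.15 below the 3.07 of cadmium (difference -0.91, adjusted p = 0.0282).

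Many heat shock genes rose with copper, and many of them stood lower than with cadmium. Of 17 measured small heat shock proteins, chaperones that hold unfolded proteins, 12 rose, with a median of 0.78 against 2.25 under cadmium. The class I gene Os03g0267000 had log2 ratios of 5.16, 5.03 and 6.02 and a mean of 5.41 ± 0.20, 42.4-fold (adjusted p = 2.03e-06), with a control above background on 2 of 3 arrays. Its cadmium mean was 7.47, a difference of -2.07 ± 0.28 (adjusted p = 0.00412). Os03g0266900 beside it rose by 3.86 against 6.54, Os02g0758000 by 1.98 against 3.57 and Os01g0184100 by 1.87 against 4.62. In all 12 of the 17 were lower with copper than with cadmium and none higher. The count of 12 rises was 7 without copper array 3.

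Among large chaperones 5 of 12 rose and 2 fell, with 1 fall without copper array 1 or 3. HSP81-1 (Os04g0107900) did not pass, at 0.11 on the probe tested, while its other probes gave 0.59 to 1.43. HSP101 (Os05g0519700), which resolves aggregates, had ratios of 0.99, 1.21 and 1.95 and a mean of 1.39 against 4.81 with cadmium, a difference of -3.43 ± 0.28 (adjusted p = 0.000934) that rests on 2 cadmium arrays. The HSP70 gene Os01g0840100 rose by 0.99 against 3.00, and the HSP90 gene Os08g0500700 by 0.82 against 1.76, both differences past the test. The HSP70 gene Os03g0276500 rose by 1.29, and its difference from 1.96 did not pass here (adjusted p = 0.0637) but passed in 4 of 17 alternative settings, the replicate block among them (0.0253). The HSP70 gene Os03g0821100 fell by 0.60, a call lost in 3 alternative settings. Of 16 heat shock factors 8 rose. HSFA4d (Os05g0530400), known from a spotted leaf mutant of rice, rose by 1.57 with copper and 1.71 with cadmium. HSFA2a (Os03g0745000) rose by 1.51 against 3.44 on the probe tested, while its 4 other probes gave 0.11 to 0.97 with copper and the mean of its probes 0.77. Likewise other probes of HSFA4d gave 1.32, 0.62 and 0.60. HSFB2b (Os08g0546800) rose by 0.85 against 2.43, while HSFB2c (Os09g0526600) rose by 1.12 against 1.02. HSFB1 (Os09g0456800) was the exception, at 0.82 with copper and -0.48 with cadmium (difference 1.30, adjusted p = 0.00101).

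Tau glutathione S-transferases, detoxifying enzymes clustered on chromosome 10, rose in 8 of 16 measured members and fell in 3. Os10g0527400 had ratios of 2.58, 3.54 and 3.78 and a mean of 3.30, 9.85-fold, against a cadmium mean of 6.05 (difference -2.75 ± 0.29, adjusted p = 0.00135). Os10g0527800 was almost the same on all arrays, at 2.31, 2.33 and 2.34, and its difference from cadmium (-0.56, adjusted p = 0.0485) was lost in 11 of 17 alternative settings. Os10g0529500 and Os10g0528100 rose by 1.73 and 1.26 and were lower than with cadmium. Os10g0530200 fell by 1.103 on average, from -0.08 on array 1 and -1.50 and -1.73 on the others, and lost its call without copper array 2 or 3. Os10g0529300 fell by 0.82. The count of 3 falls was 1 without copper array 2 or 3. In all 10 of 16 were lower with copper than with cadmium and none higher.

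Sulfur assimilation, which feeds glutathione and the cadmium-binding phytochelatins, had 3 rises among 11 measured members, a share near the 25.4% of all genes, with a median of 0.19 against 1.01 under cadmium. APS reductase APR1 (Os07g0509800) had ratios of 1.80, 1.52 and 1.40 and a mean of 1.57, the sulfate transporter SULTR1;1 (Os03g0195800) a mean of 0.88 and the ATP sulfurylase Os04g0111200 a mean of 0.75. Their cadmium means were 3.69, 2.93 and 2.04, and the differences of -2.12, -2.05 and -1.29 passed (adjusted p = 0.00675, 0.0101 and 0.00881). The phytochelatin synthases PCS1 (Os05g0415200) and PCS2 (Os06g0102300) had means of -0.11 and 0.33 and did not pass. SULTR1;1 lost its copper call in 8 of 18 alternative settings. The count of 3 was 2 without copper array 2 or 3 and with slide as a random block.

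Transporters of zinc, iron and manganese were mostly near 0, with 5 rises and 3 falls among 24 and a median of 0.09. Neither share exceeds the 25.4% of rises and 17.5% of falls over all genes. ZIP8 (Os07g0232800), a zinc transporter, had ratios of 1.52, 1.07 and 1.04 and a mean of 1.21 ± 0.10 (adjusted p = 8.89e-05). It stood at -0.27 with cadmium, and the difference of 1.48 ± 0.14 passed (adjusted p = 0.00101). HMA2 (Os06g0700700), which moves zinc toward the shoot, rose by 0.52. The iron-chelator genes TOM1 (Os11g0134900), an exporter of deoxymugineic acid, and NAS3 (Os07g0689600), a nicotianamine synthase, fell by 1.04 and 0.76. TOM1 stood at -1.06, -0.99 and -1.08 and did not differ from its cadmium mean of -0.77 past the test. HMA2, TOM1 and NAS3 each lost their call without copper array 2 or 3. Without copper array 2 the list had 2 rises and 0 falls, without copper array 3 it had 1 rise and 0 falls, and with slide as a random block 2 rises and 2 falls.

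Several phosphate transporters rose. PT4 (Os04g0186400) had ratios of 1.86, 1.83 and 1.98, PT8 (Os10g0444700) of 1.67, 1.83 and 1.91 and PT1 (Os03g0150600) of 1.66, 1.71 and 1.73. The 3 arrays lay close together for each gene. Their means of 1.89, 1.80 and 1.70 did not differ from cadmium (1.69, 1.63 and 1.46) past the test. Another probe of PT8 gave less, 0.45, as did the other probes of PT4, at 1.45, 0.88 and 0.82. Those of PT1 gave 1.77 and 1.51. PT2 (Os03g0150800) rose by 0.98 on the probe tested, and its other probes gave 0.85 to 0.91 on 5 and 0.08 and -0.04 on 2. In the list 5 of 9 rose and 1 fell, with no fall when any 1 copper array was left out. The nitrate transporter NRT2.2 (Os02g0112600) and its partner NAR2.1 (Os02g0595900) rose by 1.55 and 1.08, the glutamate synthase NADH-GOGAT1 (Os01g0681900) by 1.33 and the nitrate reductase NIA1 (Os08g0468100) by 0.67. In that list 6 of 11 rose, 4 without copper array 1 or 3.

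Aquaporins, cellulose synthases and type-A response regulators each had at least 3 falls and no rise, beside 17.5% of all genes that fell. With slide as a random block or with the replicate block 1 aquaporin rose. The cellulose synthases had up to 1 rise over the alternative settings. Plasma membrane aquaporins fell in 5 of 9 members. PIP2;3 (Os04g0521100), a root water channel, had ratios of -0.85, -1.11 and -1.04, all below 0, with a mean of -1.002 ± 0.09, 2.002-fold lower (adjusted p = 8.99e-05). Its cadmium mean was -0.27, and the difference of -0.74 ± 0.12 passed (adjusted p = 0.00828). PIP2;6 (Os04g0233400) fell by 0.68 against 0.04 with cadmium (difference -0.72, adjusted p = 0.00634), and PIP2;2 (Os02g0629200) by 0.81. PIP1;3 (Os02g0823100) fell by 0.35, a call lost in 3 alternative settings. The count of 5 was 3 without copper array 2.

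Cellulose synthases fell in 6 of 9 members, with a median of -0.43. They included CESA4, CESA7 and CESA9 (Os01g0750300, Os10g0467800 and Os09g0422500), which build the secondary wall, at -0.46, -0.53 and -0.47, and CESA8 (Os07g0208500) at -0.48. CESA4 was -0.10 on array 1 and -0.66 and -0.63 on the others, and it and CESA8 lost their calls in 2 and 3 alternative settings. The count of 6 was 4 without copper array 1 or 2, and 3 without copper array 3 or with the processed signals centred on the median. None differed between the metals past the test.

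Type-A response regulators, which cytokinin induces and which damp its signal, fell in 3 of 7 members, with a median of -0.59. RR3 (Os02g0830200) had ratios of -1.69, -1.01 and -0.48, lowest on array 1, with a mean of -1.06, 2.08-fold lower (adjusted p = 0.00454). It stood at 0.07 with cadmium, and the difference of -1.13 ± 0.29 passed by a narrow margin (adjusted p = 0.0461) that was lost in 10 alternative settings, the replicate block among them (0.052). RR2 (Os02g0557800) fell by 0.59 and RR1 (Os04g0442300) by 0.46. RR2 lost its call in 6 of 18 alternative settings, among them those without copper array 1, 2 or 3, and RR1 in 5, the replicate block among them (0.0528). The count of 3 was 1 without copper array 1 or 2 and with slide as a random block, and 2 without copper array 3.

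Endoplasmic reticulum stress genes showed no common direction, with 2 rises, 1 fall and a median of 0.17 over 7 members. These shares are near the 25.4% and 17.5% of all genes. The factor bZIP50 (Os06g0622700) rose by 0.63, the chaperone BIP5 (Os08g0197700) by 0.39, and calnexin (Os04g0402100) fell by 0.38. Each of the 3 lost its call in 2 or 3 alternative settings, and without copper array 3 the list had 1 rise and 0 falls. Photosynthesis genes, used as markers of shoot tissue, were mostly too dim in these roots. Of 9 listed, 4 were measured and 2 rose, the Rubisco small subunit Os12g0292400 by 0.62 and the light-harvesting gene Os01g0720500 by 0.59. Their calls were lost in 4 and 6 alternative settings, the former with the replicate block (adjusted p = 0.0756), and the count of 2 was 1 without copper array 1 or 2 and 0 without copper array 3. The part of any shoot RNA in the other results was not tested.

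Outside the lists, the largest rise was that of Os08g0277200, at 5.97, 4.82 and 4.89 with a mean of 5.23, 37.5-fold. Over the alternative settings this gene ran from 4.86 to 7.16, so its fold is uncertain in size. Its cadmium mean was 2.36, and the difference of 2.87 passed (adjusted p = 0.00855). The largest falls were those of Os07g0120000, at -0.92, -2.11 and -2.11 with a mean of -1.71, and of Os03g0111200, with no value on array 1 and -1.82 and -1.60 on the others. No identity is given for these 3 loci. Of the 129 microRNA precursors 45 rose and 3 fell, beside 25.4% and 17.5% of all genes, read from labelled long RNA and not from mature microRNA.

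The metals differed for 48 of the 136 genes chosen by the naming rule, 20 higher and 28 lower with copper, as the paired plot shows. Over all 23417 genes 6.57% were higher and 4.07% lower with copper. Many named genes were chosen for large copper ratios, so their share of differences is not comparable with that of all genes. The doses of the metals differ, and the test compares these treatments rather than the metals at equal dose. The 20 named genes higher with copper were WRKY, phenylpropanoid, phytoalexin, jasmonate and MAP kinase genes, with ATX1, ZIP8, JIOsPR10, a metallothionein, a late embryogenesis gene and Os08g0277200. Heat shock, glutathione S-transferase and sulfur genes made up 16 of the 28 that were lower. With the replicate block the differences of SNAC1, NAC10, RAB16B, calnexin and the PR10-type gene Os12g0555200 passed too (adjusted p = 0.0162, 0.0446, 0.0476, 0.0494 and 0.0488).

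**Figure D4:**
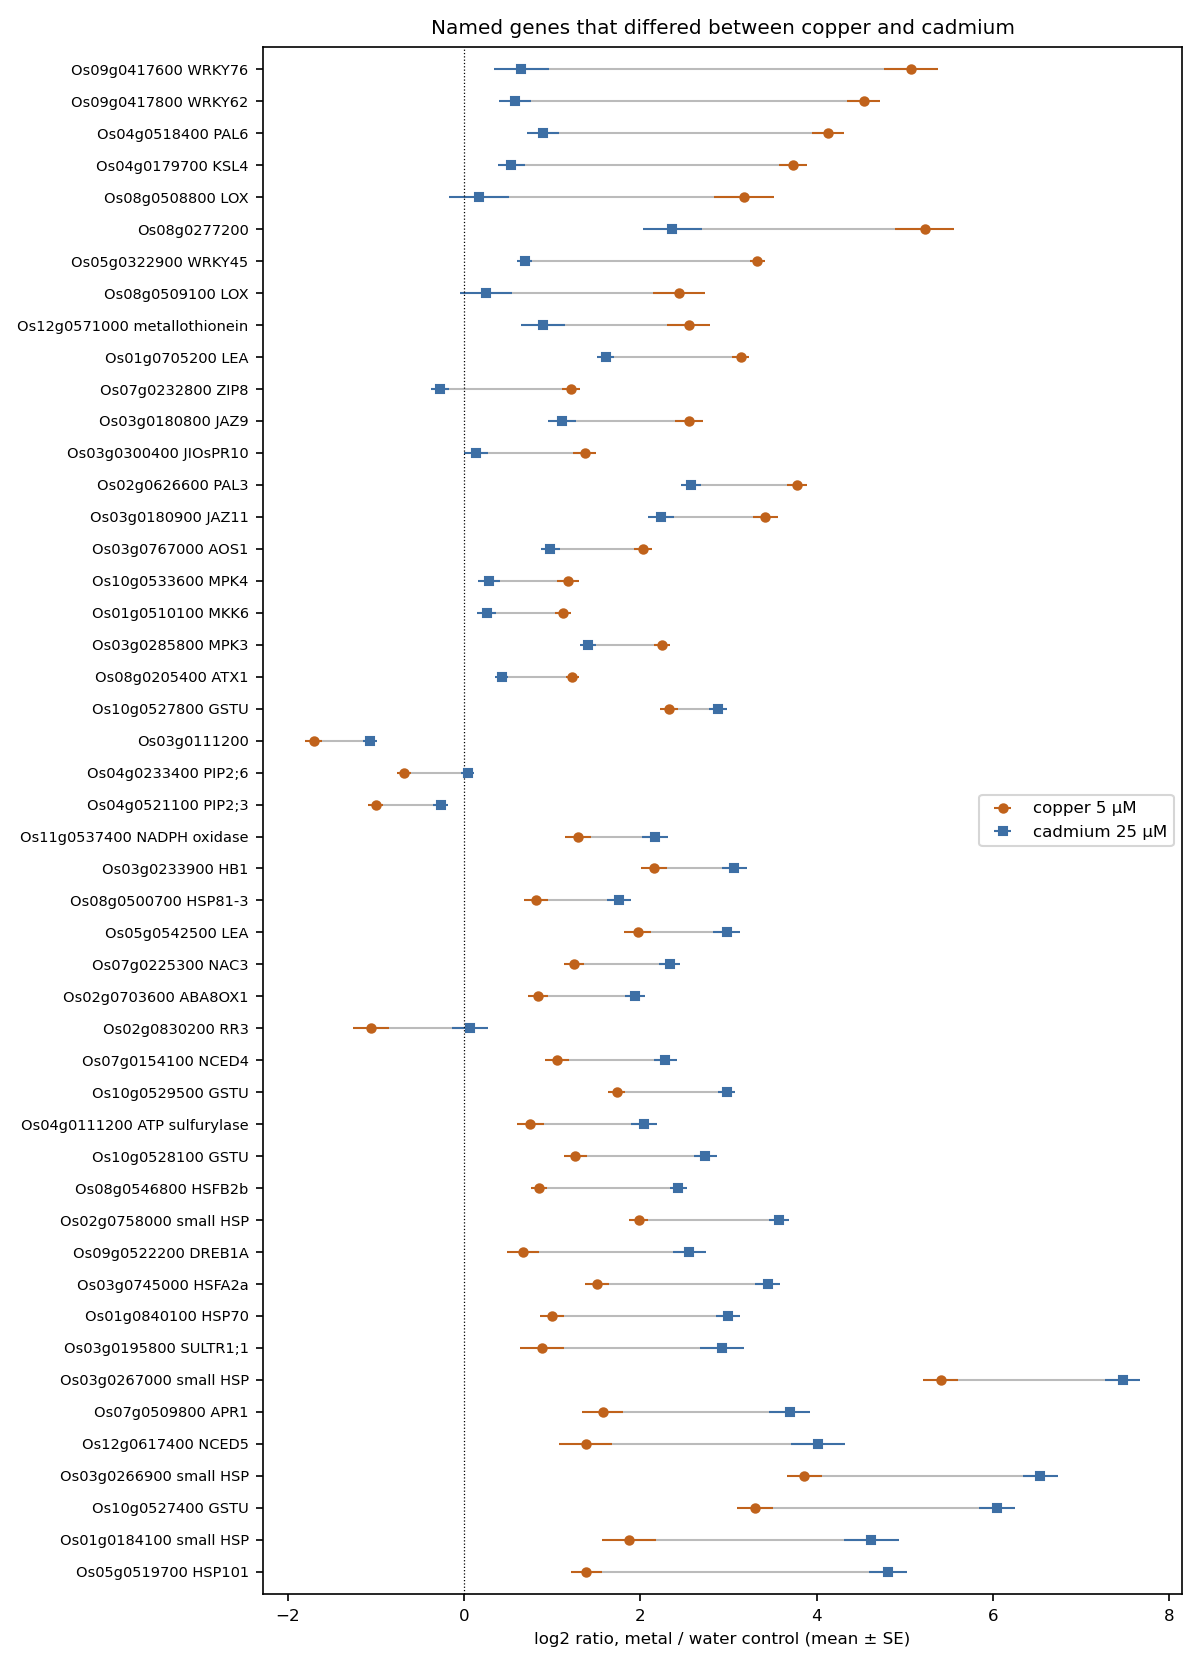
Log2 ratio of metal over water control (mean ± moderated SE of the fit) with copper (circles) and cadmium (squares) for the 48 named genes whose difference passed the test, ordered by the difference. Os03g0111200 has 2 copper arrays and MKK6 and HSP101 have 2 cadmium arrays, and all other means rest on 3. WRKY76 has the largest positive difference (4.42) and HSP101 the largest negative one (-3.43).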

How the data were processed

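Spot intensity values were deposited in the scanner output of Feature Extraction 10.7.1.1, per the file headers, as the median brightness of spot and background per channel, not normalized. The authors' deposited series table holds log2 ratios of treated over control, with column medians from -0.191 to -0.067 on the copper arrays. No source used here states its centring, and it served as an alternative.

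Background was corrected with normexp (offset 50), which understates changes of dim genes, and each array was normalized by loess. Outlier-marked spots were left out. Kept probes had 2 or more values per metal and, for 1 metal or both, a signal well above background in 1 channel or both of all 3 arrays, and the brightest probe stood for its gene. Ratios of all 6 arrays entered 1 fit in R 4.3.3 by lmFit and eBayes of limma 3.58.1, with a coefficient for each metal. Standard errors are those of this fit, with a spread pooled over both metals and moderated across all genes. For genes on which copper array 1 stood apart they can understate the spread of the copper arrays alone. The two-sided p-values were adjusted by Benjamini and Hochberg over 23417 genes, with a threshold of 0.05. The test scripts were checked on simulated data. Between 75.7% and 82.4% of probes were well above background per copper array and channel and none was saturated, and the median standard error of a log2 ratio was 0.09. Precision is limited by the 3 arrays per metal. The fit treated these arrays as independent, while with slide as a random block the correlation within slides was 0.66.

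The gene lists and the comparison were chosen with earlier results of these data known, from general knowledge of rice locus numbers. Genes were named by a rule: the 12 largest listed rises and the 12 largest listed falls with the same sign on all 3 arrays, up to 4 called members per list, every measured copper, superoxide dismutase and metallothionein gene, and the 2 largest rises and falls of any gene. Other list members named were chosen after their values were seen.

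The titles give both metals the replicate numbers 1, 2 and 3. Arrays of the same number deviated together from their groups (correlations of 0.37, 0.24 and 0.27), so the numbers were treated as pairs in a blocked fit. Numbers 2 and 3 share a slide and correlate across numbers too (0.23 and 0.19). Alternatives were other scalings, filters, probe choices, blocks, subsets of arrays and the series table.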

Additional observations from a re-analysis of the deposited data

Results flagged for a closer look

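For 48 named genes the log2 ratio with copper differed from that with cadmium by the test of the difference itself (limma, adjusted p between 0.000117 and 0.0485), at different doses. Over all 23417 genes 6.57% were higher and 4.07% lower with copper. There were 3 arrays per metal except for Os03g0111200 (2 copper arrays) and MKK6 and HSP101 (2 cadmium arrays). The values below are copper minus cadmium.

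Of the defence genes, the difference was 4.42 for WRKY76 (Os09g0417600), 3.96 for WRKY62 (Os09g0417800) and 2.64 for WRKY45 (Os05g0322900). It was 3.23 for PAL6 (Os04g0518400), 1.21 for PAL3 (Os02g0626600), 3.20 for KSL4 (Os04g0179700) and 1.23 for JIOsPR10 (Os03g0300400). In jasmonate synthesis and signalling it was 3.01 and 2.19 for the lipoxygenases Os08g0508800 and Os08g0509100, 1.05 for AOS1 (Os03g0767000), 1.44 for JAZ9 (Os03g0180800) and 1.18 for JAZ11 (Os03g0180900). The kinases MPK3 (Os03g0285800), MPK4 (Os10g0533600) and MKK6 (Os01g0510100) differed by 0.84, 0.89 and 0.86. The control of Os08g0508800 was not well above background on any copper array, and its difference ran from 2.55 to 5.47 over the alternative settings. Further genes higher with copper were ATX1 (Os08g0205400) by 0.80, the metallothionein Os12g0571000 by 1.65, ZIP8 (Os07g0232800) by 1.48, the late embryogenesis gene Os01g0705200 by 1.53 and Os08g0277200 by 2.87.

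Among heat shock genes the difference was -2.07 for Os03g0267000, -2.68 for Os03g0266900, -2.75 for Os01g0184100 and -1.59 for Os02g0758000. It was -3.43 for HSP101 (Os05g0519700), -2.002 for the HSP70 gene Os01g0840100, -0.94 for the HSP90 gene Os08g0500700, -1.93 for HSFA2a (Os03g0745000) and -1.58 for HSFB2b (Os08g0546800). Glutathione S-transferases differed by -2.75 (Os10g0527400), -1.47 (Os10g0528100), -1.25 (Os10g0529500) and -0.56 (Os10g0527800). Sulfur genes differed by -2.12 (APR1, Os07g0509800), -2.05 (SULTR1;1, Os03g0195800) and -1.29 (ATP sulfurylase, Os04g0111200).

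The abscisic acid genes NCED5 (Os12g0617400), NCED4 (Os07g0154100) and ABA8OX1 (Os02g0703600) differed by -2.64, -1.23 and -1.10. The control of NCED4 was not well above background on any copper array, and its difference ran from -1.82 to -1.07 over the alternative settings. The factors DREB1A (Os09g0522200) and NAC3 (Os07g0225300) differed by -1.88 and -1.09, LEA3 (Os05g0542500) by -1.01, hemoglobin HB1 (Os03g0233900) by -0.91 and the NADPH oxidase Os11g0537400 by -0.88. The aquaporins PIP2;3 (Os04g0521100) and PIP2;6 (Os04g0233400) differed by -0.74 and -0.72, RR3 (Os02g0830200) by -1.13 and Os03g0111200 by -0.64. Of the 48 calls, 30 held in every alternative setting run and 18 were lost in at least 1, with no change of sign. The most often lost were those of Os10g0527800 (11 of 17 settings), RR3 (10), HB1 (8), Os03g0111200 (6) and Os11g0537400 (5). Those of MKK6, Os03g0267000, Os08g0500700 and Os08g0509100 were lost in 4 and those of HSFA2a, KSL4, PIP2;3, LEA3, NCED4, Os08g0277200, Os10g0528100, MPK4 and Os12g0571000 in 3.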

How the results depend on the processing

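Of the 121 copper calls among the named genes, 93 held in every alternative and 28 were lost in at least 1, with no change of sign. Among uncalled differences from cadmium, those that passed the test with the opposite sign were COPT1 (0.55 on the shared slide) and ADH1 (0.54 there and 0.64 without copper array 1). With 1 array left out, ADH1 ran from -0.85 to 0.64, and other uncalled differences changed sign without passing. Genes that fell numbered 4087 here, 7396 with the scanner's processed signals and 7447 with the series table, whose all-gene medians were -0.13 (rises 40.01% and 39.9% of calls). Rises of at least 2-fold were 2734 with processed signals centred on the median. Falls of at least 2-fold, 92 here, were 902 and 559 with processed signals before and after centring, 253 without the normexp offset, 183 on the shared slide and 895 in the series table. Leaving out 1 array gave 5762 to 11657 called genes, 3960 to 6716 rises, 1802 to 4941 falls, 1627 to 1805 rises of at least 2-fold and 60 to 182 such falls. It gave 116 to 163 list members that rose and 12 to 30 that fell. Named genes higher with copper than with cadmium numbered 37 with slide as a random block, 42 on the shared slide and 16 to 32 with 1 array left out. Those lower were 18 with centred processed signals and 21 to 31 with 1 array left out. The replicate block (pairing) gave 12156 called genes and moved no total by over 1.5 times. Dim controls limit the folds that can be given.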
